A study of Mus musculus with 6 samples.

Results

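The genes described here are 9 regulators of cytokine and interferon signalling, namely Stat2, Stat3, Irf1, Irf3, Irf7, Irf9, Socs1, Socs2 and Socs3. They were taken by gene name, and each name matched 1 of the 34745 genes in each of the 6 count files. RNA-seq was carried out on 889 cells, a mouse lung cancer cell line of C57BL/6 origin grown in culture, with 3 libraries of cells that expressed Cas9 and a control sgRNA (sg-con) and 3 libraries of cells that expressed Cas9 and an sgRNA against kiaa1522 (sg-kiaa1522). All cells carried a lentiviral CRISPR vector and had been selected for it as a transduced population, and which of the kiaa1522 sgRNAs the sequenced cells carried is not given in the sources used here. The labels do not say that the 3 libraries of a group came from separate cultures, so the p-values measure the spread between these libraries, which may be technical. This spread exceeded counting error, with a chi-square per degree of freedom of 12.3 to 30.7 between libraries of a group. Its source was not tested.

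STAT proteins lie latent in the cytoplasm and are phosphorylated by JAK kinases at an activated cytokine receptor. After type I interferon, STAT2 and IRF9 act in the complex ISGF3, which binds the interferon-stimulated response element (ISRE), whereas STAT3 acts mainly below the gp130 cytokines such as IL-6 and LIF, and STAT3 dimers bind the gamma-activated site (GAS). IRF3 and IRF7 switch on the interferon genes when viral nucleic acid is sensed, IRF1 carries the response to interferon gamma, and the SOCS proteins are induced by STATs and shut the receptors off. In lung tumor cells this circuit sets both the response to interferon and growth through STAT3.

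Totals ran from 12220001 to 18609376 counts per library, the lowest being sg-kiaa1522 replicate 1, and values are given as CPM, the counts of a gene scaled to a common library size with TMM factors (TMM CPM). The mRNA of the targeted gene, listed as C77080, was not lower in the libraries labelled sg-kiaa1522: it measured 127, 130 and 124 TMM CPM in sg-con and 210, 203 and 216 in the libraries labelled sg-kiaa1522 (log2 fold change 0.73 ± 0.06 SE, adjusted p = 9.1e-05, edgeR quasi-likelihood test). The directions below therefore rest on the labels, and the mRNA level does not measure the protein. Keratins of the epithelial marker list were abundant (Krt18, 1947 to 2250 TMM CPM in sg-con), while Epcam, another epithelial marker, had 0 counts in every library.

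A stretch before the RefSeq start of each of 4 genes is shown because STATs and IRFs bind such motifs and these windows hold a match. The RefSeq windows on GRCm38.p6 run from 250 bases before to 50 bases after a gene start, and 8 of the 9 genes had a window, with 10 windows in all. They were searched on both strands for the ISRE core (GAAA, any 2 bases, GAAA) and for the GAS (TTCNNNGAA), and capitals mark the match. No window of these genes held both motifs. The ISRE core was present in 2 of the 10 windows and in 3.44% of all 32851 windows, and the GAS was present in 2 of the 10 and in 8.3% of all windows. In Stat2 the match lay 222 to 213 bases before the start, on the minus strand of the gene (chr10:128270251-128270310, plus strand), in Irf1 90 to 82 bases before it (chr11:53769899-53769957, plus strand), in Socs1 83 to 68 bases before it, where 2 ISRE cores overlap (chr16:10785579-10785644, minus strand), and in Socs3 154 to 146 bases before it (chr11:117969487-117969545, minus strand).
Stat2: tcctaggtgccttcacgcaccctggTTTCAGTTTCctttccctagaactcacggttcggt
Irf1: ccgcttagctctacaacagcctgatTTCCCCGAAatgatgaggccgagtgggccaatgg
Socs1: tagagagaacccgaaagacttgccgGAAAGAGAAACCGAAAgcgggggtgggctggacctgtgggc
Socs3: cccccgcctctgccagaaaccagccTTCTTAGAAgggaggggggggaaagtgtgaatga
Positions are counted from the RefSeq start. That start is also the start of a GENCODE transcript in Irf1 and Socs1 but not in the other two: in Stat2 it lies at 128270498, before the GENCODE gene, and in Socs3 at 117969366, so that the Socs3 stretch lies inside the span GENCODE gives for the gene. A match is a description of the letters in the window and not of binding. None of these 4 genes passed the test between the groups, as given below.

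Of the 9 genes, 7 exceeded the filter of more than 500 counts over the 6 libraries and were tested, and 2 of these passed an adjusted p of 0.05, with Socs2 higher and Irf3 lower in the libraries labelled sg-kiaa1522. The share, 28.6%, stood beside 52.5% of all 10046 genes tested (26.3% higher and 26.3% lower). No member reached the threshold of the study, which adds a minimum of 1 for the size of the log2 fold change, against 7.08% of all genes tested. The median size of the log2 fold change was 0.19 over the 7 genes and 0.32 over all genes tested, and the 95% interval of each of the 7 lay within 1 log2 unit of 0 (see the plot of fold changes). The groups did not overlap for Socs2, Stat3 and Irf3, or 3 of the 7 tested genes, beside 61.7% of all genes tested, and did overlap for Irf7 and Socs1, which were under the filter. For any single gene an exact two-sided permutation test of 3 libraries against 3 cannot give a p below 0.1, which was the value for these 3 genes.

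**Figure D1:**
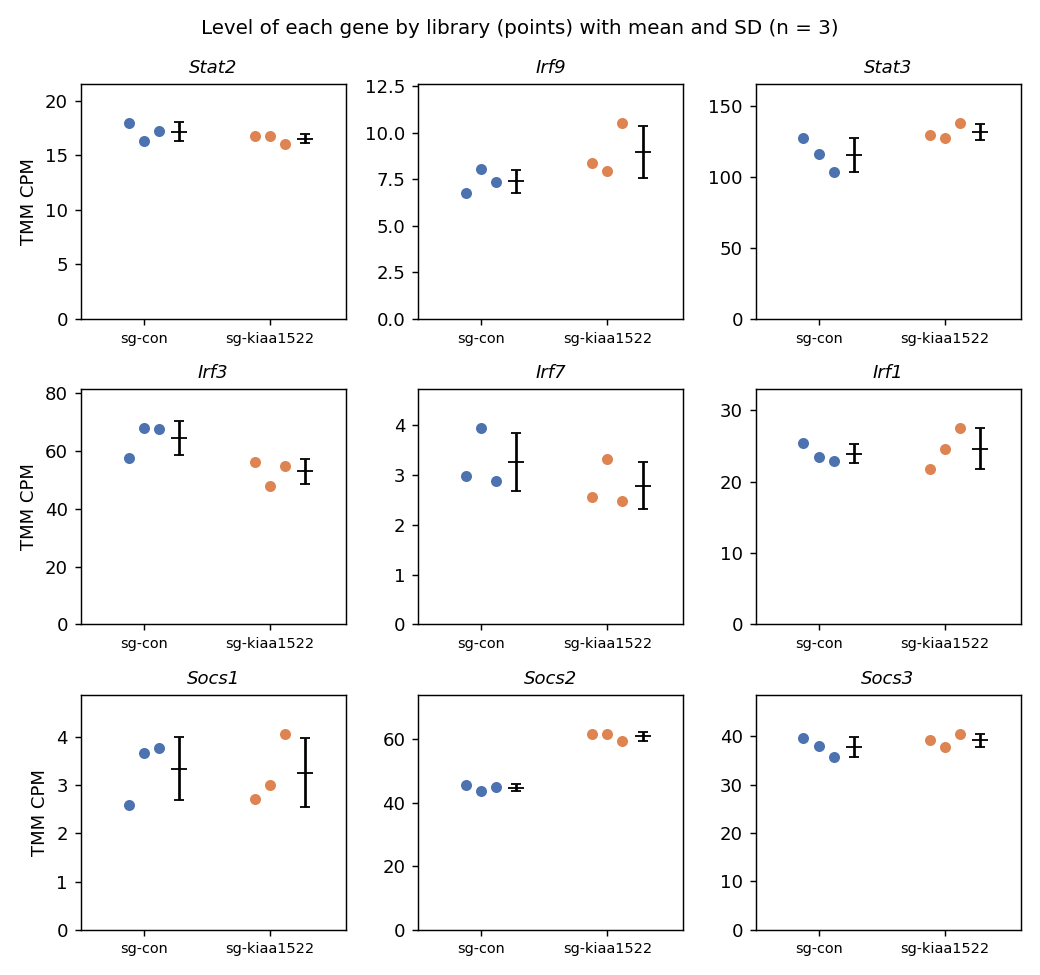
TMM CPM (linear axis from 0) of each of the 9 genes in the 3 sg-con libraries (blue) and the 3 libraries labelled sg-kiaa1522 (orange), with the mean and SD beside the points. Socs2 separates the groups by the widest margin, at 43.6 to 45.7 against 59.3 to 61.6 TMM CPM, while Irf7 and Socs1 stay below 5 TMM CPM.

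**Figure D2:**
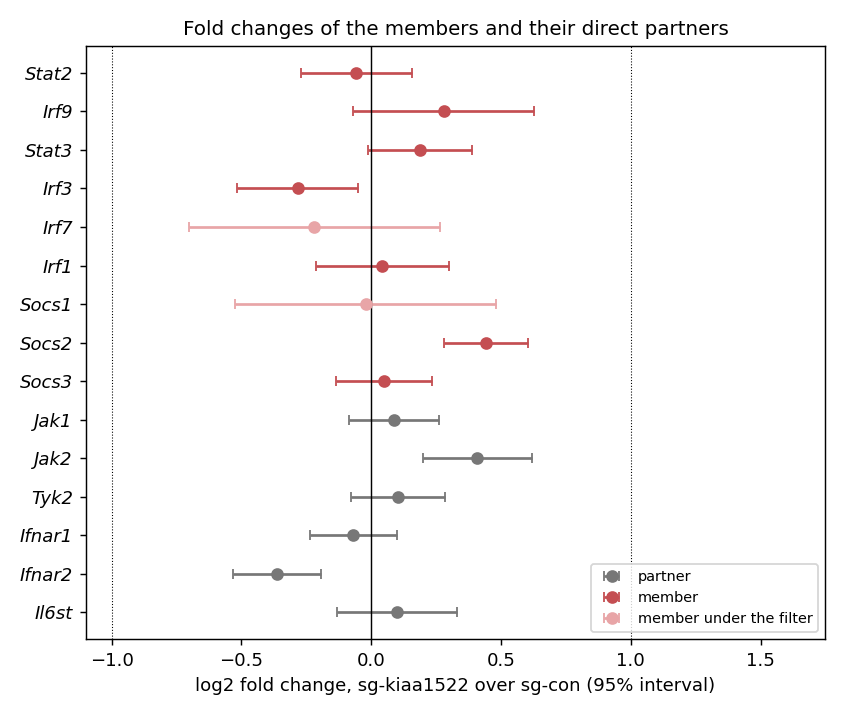
Log2 fold change (points) with its 95% interval (bars) for the 9 genes (red, and pale red for the pair under the filter, fitted with every gene that had at least 1 count) and for 6 direct partners (grey), with dotted lines at a size of 1. Of the red points Socs2 and Irf3 have intervals that leave out 0, and of the grey points Jak2 and Ifnar2 do.

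The feedback inhibitors were led by Socs2, which restrains the growth hormone receptor (chr10:95385362-95417180 on GRCm38, minus strand). The gene of that receptor, Ghr, had 0 counts in every library. Socs2 measured 45.7, 43.6 and 44.9 TMM CPM in sg-con and 61.6, 61.6 and 59.3 in the libraries labelled sg-kiaa1522. Each library labelled sg-kiaa1522 lay above each sg-con library, and the gap was many times the spread within a group. The level rose 1.36-fold (log2 fold change 0.44 ± 0.07 SE, adjusted p = 0.00153, edgeR), and the call held in 16 of 16 alternatives.

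Socs3, the main brake on gp130 and STAT3 signalling (chr11:117966079-117970047, minus strand), measured 39.7, 37.9 and 35.6 TMM CPM in sg-con and 39.1, 37.7 and 40.5 in the libraries labelled sg-kiaa1522. The ranges overlapped, and the log2 fold change of 0.05 had a 95% interval from -0.13 to 0.24 (adjusted p = 0.614). Socs1, which blocks JAK kinases at the interferon receptors (chr16:10782240-10785536, minus strand), was scarce, with 45, 68 and 63 counts in sg-con and 33, 55 and 69 in the libraries labelled sg-kiaa1522. These correspond to 2.58, 3.67 and 3.78 against 2.72, 3.00 and 4.06 TMM CPM, and the ranges overlapped. Its 333 counts were under the filter, and in a fit of every gene with at least 1 count its log2 fold change was -0.02 with an interval from -0.52 to 0.48 (adjusted p = 0.959, beside 33.5% of 18499 genes called). With 1 library left out it ran from -0.22, without sg-kiaa1522 replicate 3, to 0.09, without sg-kiaa1522 replicate 1, and so had no stable sign.

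Among the other inhibitors of JAK and STAT proteins, 6 of the 13 tested were higher and 2 were lower, beside 26.3% of all genes tested in each direction, with a median log2 fold change of 0.15 (-0.01 over all genes tested). In the fit of every gene with at least 1 count, 6 of 15 were higher and 2 lower, beside 33.5% of all genes called in either direction, and the median was -0.03. The largest rises were those of Pias2, a SUMO ligase that restrains STATs (0.59), Socs7 (0.58) and Pias3, an inhibitor of STAT3 (0.47). The falls were those of Socs4 (-0.45) and Sh2b3, an adaptor that restrains JAK2 (-0.42). Relative to the median of its chromosome Socs4 stood at -0.07 and lost its call. Summed per kilobase of exon, SOCS family RNA was 57.7 ± 3.09 CPM per kilobase in sg-con and 68.5 ± 2.73 in the libraries labelled sg-kiaa1522 (SD, n = 3), with no overlap. Socs5 was the largest part of this sum, at 35.6% ± 2.27 in sg-con and 38.6% ± 1.54 in the other group, with overlap. Its log2 fold change of 0.36 passed (adjusted p = 0.00727). Socs7 supplied 14.0% ± 1.02 and 17.8% ± 0.95. Socs2 supplied 8.15% ± 0.27 and 9.33% ± 0.46, whereas the share of Socs3 was 22.7% ± 1.04 and 19.8% ± 1.23. The ranges of Socs7, Socs2 and Socs3 did not overlap (exact permutation p = 0.1, the smallest possible). The sum of the IRF genes analysed, 32.1 ± 1.46 and 30.5 ± 1.36 CPM per kilobase, overlapped between the groups.

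Among the STATs, Stat3 (chr11:100885098-100939540, minus strand) measured 128, 116 and 104 TMM CPM in sg-con and 130, 128 and 138 in the libraries labelled sg-kiaa1522. The closest libraries of the groups all but touched, at 127.69 in sg-con and 127.71 in the libraries labelled sg-kiaa1522. The log2 fold change of 0.19 ± 0.09 SE did not pass the test (adjusted p = 0.104), and without sg-con replicate 1, the highest sg-con library, it was 0.25 and passed (adjusted p = 0.0209). At the last 72 of its exon bases, or 0.756% of its exon length, Stat3 overlaps Stat5a on the opposite strand, and reads there cannot be told apart because the counting is not stated to use strand.

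Stat2, the transactivating subunit of ISGF3 (chr10:128270559-128292849, plus strand), measured 18.0, 16.3 and 17.2 TMM CPM in sg-con and 16.7, 16.7 and 16.02 in the libraries labelled sg-kiaa1522. The ranges overlapped, and the log2 fold change was -0.06 with an interval from -0.27 to 0.16 (adjusted p = 0.626). Of the 7 tested JAK kinases and other STATs on the list, 1 was higher and 3 were lower, beside 26.3% of all genes tested in each direction, with a median of -0.09. In the fit of every gene with at least 1 count 1 was higher and 2 were lower, beside 33.5% of all genes called in either direction. Jak2 was the gene that rose (0.41, adjusted p = 0.00711), and Jak3 (-0.47), Stat6, the STAT of interleukin-4 (-0.32), and Stat5b, a STAT of growth hormone (-0.23), were those that fell. Some of these calls were lost in alternatives: that of Jak2 relative to the median of its chromosome (0.23, adjusted p = 0.0706), that of Stat6 relative to that median (-0.13) and without each library other than sg-con replicate 1 (adjusted p up to 0.0916), and that of Stat5b in 8 of 16 alternatives, among them leaving out sg-con replicate 3 or any library labelled sg-kiaa1522 (adjusted p up to 0.116). Jak1 and Tyk2, the kinases of the type I interferon receptor, had log2 fold changes of 0.09 and 0.10 that did not pass.

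RNA per kilobase of exon was compared among the STAT genes analysed here. Their sum was 43.9 ± 1.27 CPM per kilobase in sg-con and 41.1 ± 1.03 in the libraries labelled sg-kiaa1522, with no overlap. The share of a gene therefore also moves with this lower sum. Stat3 made up 27.7% ± 2.42 of their sum in sg-con and 33.7% ± 0.71 in the libraries labelled sg-kiaa1522, and Stat2 6.59% ± 0.15 and 6.78% ± 0.33 (SD, n = 3). The ranges of Stat3 were separate (exact permutation p = 0.1, the smallest possible) and those of Stat2 overlapped. Of these genes Stat3 was the second largest after Stat5b in sg-con and the largest in the other group. This order depends on the length used, 9.527 kilobases of exon for Stat3 and 5.539 for Stat5b. Without a length Stat3 was above Stat5b in both groups, at 116 against 82.5 TMM CPM in sg-con and 132 against 70.5 in the other group. The shares were not computed with another length.

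**Figure D3:**
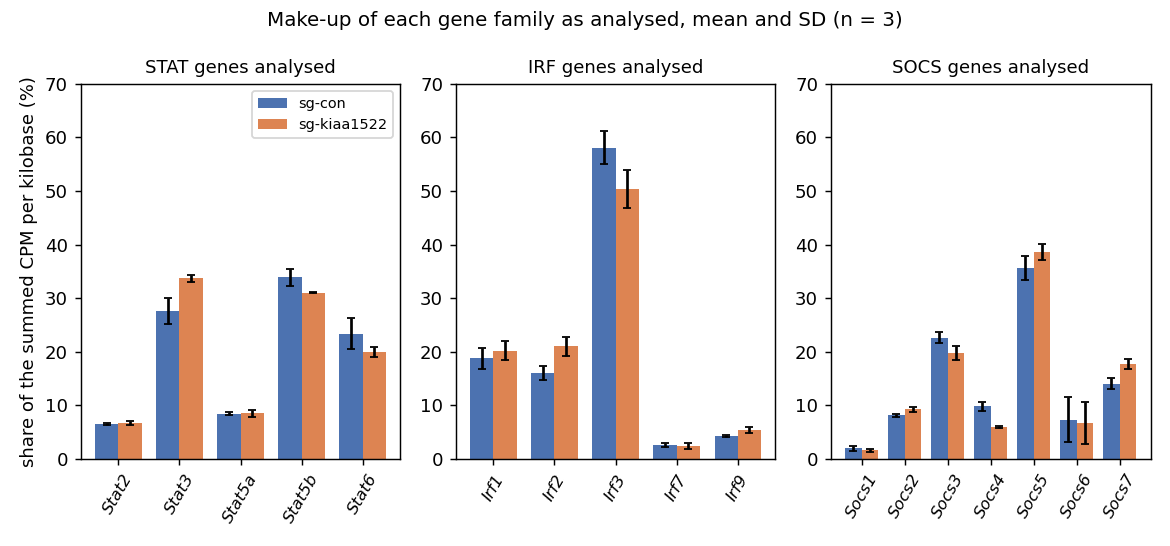
Share of the summed CPM per kilobase of exon (%) of the STAT, IRF and SOCS genes analysed in sg-con (blue) and in the libraries labelled sg-kiaa1522 (orange), as mean and SD over 3 libraries, for genes above 1% in either group. Irf3 is the largest IRF in both groups, at 58.1% and 50.4%, and the share of Stat3 is higher in the libraries labelled sg-kiaa1522.

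Of the IRFs that induce interferon, Irf3 (chr7:44997648-45002848, plus strand) was the lower member. It measured 57.6, 67.8 and 67.6 TMM CPM in sg-con and 56.0, 48.0 and 54.8 in the libraries labelled sg-kiaa1522. The lowest sg-con library, replicate 1, lay just above the highest of the other group. The level was 1.22-fold lower (log2 fold change -0.28 ± 0.10 SE, adjusted p = 0.046, edgeR), and the call was kept in 5 of 16 alternatives. With 1 library left out, the adjusted p was 0.0105 without sg-con replicate 1 and over 0.05, up to 0.153, without each of the others. Irf7 (chr7:141262706-141266481, minus strand) had 52, 73 and 48 counts in sg-con and 31, 61 and 42 in the libraries labelled sg-kiaa1522, or 2.98, 3.94 and 2.88 against 2.55, 3.33 and 2.47 TMM CPM. These overlapped, and in the fit of every gene with at least 1 count the log2 fold change was -0.22 with an interval from -0.70 to 0.27 (adjusted p = 0.507). In that fit it was -0.06 without sg-con replicate 2 and -0.38 without sg-kiaa1522 replicate 2.

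In RefSeq, Irf3 starts 68 bases from Bcl2l12, a relative of the BCL2 family, which is read in the opposite direction. The stretch between their starts on GRCm38.p6 (chr7:44997564-44997663, plus strand) is shown because both genes moved the same way. Capitals mark the 68 bases between the starts.
Irf3 and Bcl2l12: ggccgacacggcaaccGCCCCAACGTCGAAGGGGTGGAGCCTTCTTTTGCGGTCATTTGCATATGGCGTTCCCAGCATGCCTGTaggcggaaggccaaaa
Bcl2l12, chosen for its position after its values were seen, measured 10.2, 11.1 and 11.4 TMM CPM in sg-con and 6.84, 6.93 and 7.89 in the libraries labelled sg-kiaa1522. It was 1.51-fold lower (log2 fold change -0.59 ± 0.12 SE, adjusted p = 0.00481). Scaf1, the gene on the other side of Irf3, had a log2 fold change of 0.11 that did not pass (adjusted p = 0.244). The annotated exons of Irf3 and Bcl2l12 share 88 bases, 2.56% of the exon length of Irf3, in which reads cannot be told apart.

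**Figure D4:**
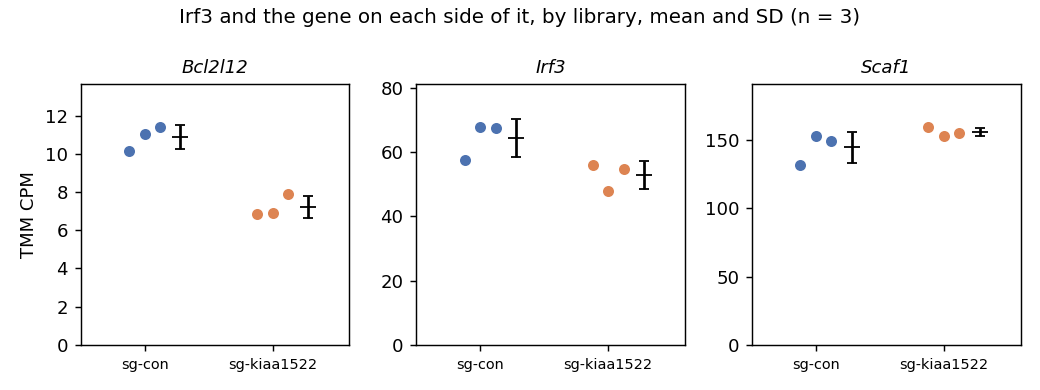
TMM CPM (linear axes from 0) of Bcl2l12, Irf3 and Scaf1 in the 3 sg-con libraries (blue) and the 3 libraries labelled sg-kiaa1522 (orange), with mean and SD. The groups are separate for Bcl2l12 and Irf3, lower in the libraries labelled sg-kiaa1522, and overlap for Scaf1.

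Upstream of IRF3 and IRF7, 3 of the 12 tested sensors and adaptors were higher and 2 were lower, or 25% and 16.7% beside 26.3% of all genes tested in each direction, with a median of 0.11. In the fit of every gene with at least 1 count 6 of 18 were higher and 4 lower, beside 33.5% of all genes called. The rises were those of Tank (0.84), Azi2 (0.48) and Traf6 (0.33), and TANK and AZI2 are scaffolds of the kinase TBK1. The call of Traf6 was lost in 7 of 16 alternatives, including without sg-con replicate 2 or 3 or sg-kiaa1522 replicate 1 or 3 (adjusted p up to 0.132), and relative to the median of its chromosome it stood at 0.19. The falls were those of Ikbke, a kinase of IRF3 and IRF7 (-0.84), and Ddx58, the RNA sensor RIG-I (-0.61). Tbk1 itself had a log2 fold change of 0.02 (adjusted p = 0.889). Interferon RNA was at the limit of detection, with 0 or 1 counts of Ifnb1 in each library, 1 count of Ifng over all libraries and 0 counts of Ifna4, Ifnl2 and Ifnl3. A count of 0 allows up to 3 counts, or 0.162 to 0.247 TMM CPM by library, for counting error only.

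Irf9, the DNA-binding subunit of ISGF3 (chr14:55603571-55610030, plus strand), measured 6.77, 8.04 and 7.38 TMM CPM in sg-con and 8.40, 7.96 and 10.5 in the libraries labelled sg-kiaa1522. The ranges overlapped at 1 library of each group. The log2 fold change of 0.28 ± 0.15 SE did not pass (adjusted p = 0.155), with an interval up to 0.63. Tested genes of chromosome 14 had a median log2 fold change of -0.38 (343 genes), and relative to that median, in an alternative added after the data were seen, Irf9 stood at 0.66 (adjusted p = 0.00857). Without sg-kiaa1522 replicate 3, its highest library, the log2 fold change was 0.14 (adjusted p = 0.462). Irf9 shares 123 exon bases, 2.28% of its exon length, with Rnf31 on the same strand.

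Irf1 (chr11:53770014-53778374, plus strand) measured 25.4, 23.4 and 22.9 TMM CPM in sg-con and 21.8, 24.5 and 27.4 in the libraries labelled sg-kiaa1522. Its sg-con libraries all fell inside the range of the other group. The log2 fold change was 0.04 with an interval from -0.21 to 0.30 (adjusted p = 0.764). Of the 4 other IRF genes and IRF2-binding proteins tested, Irf2, which competes with IRF1 for its sites, rose by 0.32 and Irf2bp2 by 0.41 on the log2 scale, while Irf2bp1 (0.01) and Irf2bpl (-0.11) did not pass. These 2 of 4 stood beside 26.3% of all genes tested that were higher. In the fit of every gene with at least 1 count 2 of 7 were higher, or 28.6%, with a median of 0.02. Of all genes in that fit 33.5% were called in either direction. The call of Irf2 was lost in 5 of 16 alternatives, including without sg-con replicate 3, sg-kiaa1522 replicate 2 or sg-kiaa1522 replicate 3 (adjusted p up to 0.0677) and relative to the median of its chromosome (0.24). The share of Irf2 in the summed RNA per kilobase of the IRF genes analysed was 16.02% ± 1.36 in sg-con and 21.1% ± 1.77 in the libraries labelled sg-kiaa1522, and that of Irf3 was 58.1% ± 3.04 and 50.4% ± 3.47, with no overlap of the groups for either gene (exact permutation p = 0.1). Irf4, Irf5 and Irf8, known mainly from blood cells, had 1, 24 and 10 counts over all 6 libraries.

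Levels per kilobase of exon, which allow genes to be compared, were ordered in sg-con as Irf3 at 18.7 CPM per kilobase, Socs3 at 13.1, Stat3 at 12.2, Irf1 at 6.01, Socs2 at 4.69, Stat2 at 2.90, Irf9 at 1.37, Socs1 at 1.15 and Irf7 at 0.865. Neighbours with overlapping ranges were Socs3 and Stat3, Irf9 and Socs1, and Socs1 and Irf7. In the libraries labelled sg-kiaa1522 Irf3, at 15.4, overlapped with Stat3 at 13.9, Stat3 with Socs3 at 13.5, and Socs2, at 6.39, with Irf1 at 6.18. Irf3 was at the percentile 68.7 of the levels of all tested genes with a length and Stat2 at 13.1, and Irf9, Socs1 and Irf7 were below 4. With the mean transcript length in place of the summed exon length Stat3 came first and Irf3 second.

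At the cell surface, 4 of the 7 tested interferon and gp130 receptor genes were lower and 1 was higher, beside 26.3% of all genes tested in each direction, with a median of -0.36. In the fit of every gene with at least 1 count, which took in 14 of them, 5 were lower and 4 higher, beside 33.5% of all genes called in either direction, with a median of -0.21. The falls included both chains of the interferon gamma receptor, Ifngr1 (-0.70) and Ifngr2 (-0.62), as well as Il10rb (-0.65), and the rise was that of Ifnlr1, the receptor of interferon lambda (0.68). Of the type I receptor chains, Ifnar2 was 43.8 ± 1.596 TMM CPM in sg-con and 34.1 ± 0.14 in the libraries labelled sg-kiaa1522 (SD, n = 3, log2 fold change -0.36, adjusted p = 0.00453), and Ifnar1 had -0.07 (adjusted p = 0.451). Il6st, which encodes gp130, had 0.10 (adjusted p = 0.424). Only 4 of the 18 ligands on the list were abundant enough to test: Il15 (0.73) and Lif (0.50) were higher and Csf1, the macrophage growth factor, was lower, from 444 ± 26.8 to 124 ± 14.2 TMM CPM (SD, n = 3, -1.84), beside 26.3% of all genes tested in each direction. With every gene of at least 1 count fitted, 3 of 13 ligands were higher and 1 lower, with a median of 0.14.

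Downstream, 7 of the 13 tested targets of ISGF3 were lower and 1 was higher, beside 26.3% of all genes tested in each direction, with a median log2 fold change of -0.51 beside -0.01 over all genes tested. Xaf1, a pro-apoptotic factor (-2.21), the secreted protein gene Lgals3bp (-1.37) and Herc6, the mouse ligase for ISG15 (-1.19), had the largest falls, and Ifi35 was higher by 0.36 (adjusted p = 0.0339), a call that was lost without any 1 of the 6 libraries (adjusted p from 0.0518 to 0.0958). Of 8 tested targets of interferon gamma and IRF1, 6 were lower, with a median of -0.45, and the other two, Psmb10 and B2m, had log2 fold changes of 0.22 and -0.08 that did not pass. The GTPase genes Gbp9 (-1.74), Irgm1 (-0.90) and Gbp6 (ENSMUSG00000104713, -0.81) led the falls. The Gbp genes are a multigene family, and the symbol Gbp6 is shared by another identifier, so how the counting split reads between relatives is uncertain. Stat2, Irf9 and Irf1 did not pass the test in the same libraries. Most targets on these lists, 22 of 35 and 18 of 26, were under the filter on low counts. In the fit of every gene with at least 1 count, 10 of 33 targets of ISGF3 were lower and 2 higher, and 9 of 26 targets of interferon gamma and IRF1 were lower and 3 higher, beside 33.5% of all genes called in either direction. The medians of these lists in that fit were -0.51 and -0.77. Besides Ifi35 the higher genes, all under the filter, were Parp12, Psmb8, Casp1 and Cd274. Parp12 had 0, 1 and 3 counts in sg-con and 36, 43 and 42 in the libraries labelled sg-kiaa1522, and Psmb8, an immunoproteasome subunit, had 8, 6 and 5 against 31, 43 and 31. Cd274, which encodes PD-L1, had 60, 64 and 44 against 73, 102 and 99 counts (log2 fold change 0.87, adjusted p = 0.00224). The lower targets under the filter included Samd9l (-1.87), Uba7 (-1.74), Igtp (-1.46) and Parp14 (-0.86). They also included Cxcl10, with 36, 34 and 35 counts in sg-con and 7, 8 and 5 in the libraries labelled sg-kiaa1522 (-2.21).

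Targets of STAT3 went both ways, with 7 of the 18 tested higher, 6 lower and a median of 0.01, and with 7 and 6 of 23 in the fit of every gene with at least 1 count. Myc, a driver of growth (0.78), the repressor gene Bcl6 (0.65) and Hif1a (0.43) were the largest rises. The largest falls were those of Fos, an immediate early gene (-2.46), Bcl3, a regulator of NF-kB (-1.23), and Timp1, an inhibitor of metalloproteases (-1.05). Over all 9 lists 23 of 86 tested genes were higher and 31 lower, or 26.7% and 36.0%, beside 26.3% of all genes tested in each direction. With every gene of at least 1 count fitted, 34 of 156 were higher and 39 lower, or 21.8% and 25%, beside 33.5% of all genes called.

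**Figure D5:**
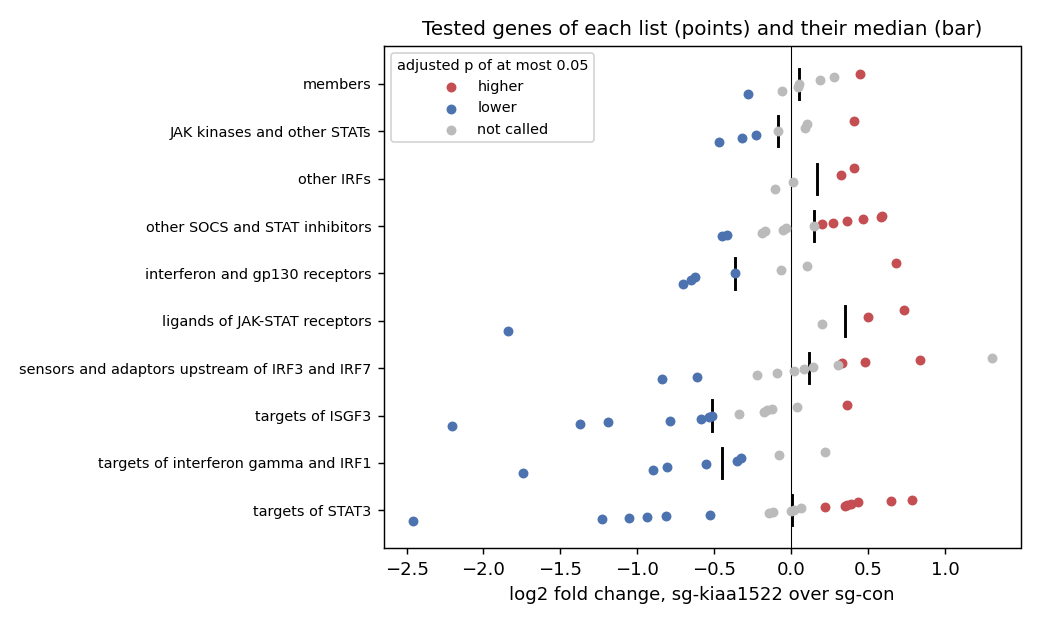
Log2 fold change of each tested gene (points) in the 9 genes described here and in 9 lists of their partners, with the median of each list (bar) and colours for genes higher, lower or not called at an adjusted p of 0.05. The lists of ISGF3 targets and of interferon gamma and IRF1 targets have medians of -0.51 and -0.45, and the genes described here stay within 0.44 of 0.

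Of the marker lists of other cell types, the sums of 3 were separate between the groups and that of the endothelium overlapped. The summed level of the 8 leukocyte and macrophage markers was 2.27 to 6.31 TMM CPM in sg-con and 11.04 to 14.0 in the libraries labelled sg-kiaa1522, with Adgre1 and Cd3e at 0 counts. The higher sum was that of Cd68 alone, at 1.195 ± 0.05 and 11.3 ± 1.41 (SD, n = 3), whereas Lyz2 was at 2.27 ± 1.32 and 0.925 ± 0.02 and Ptprc at 0.406 ± 0.38 and 0.103 ± 0.02. The 5 mast cell markers summed to 6.14 to 7.32 and 0 to 0.118, almost wholly Mcpt4, with Cpa3 and Fcer1a at 0 counts, the 6 fibroblast markers to 48.0 to 53.2 and 24.3 to 36.2, mostly Pdgfrb, and the 4 endothelial markers to 0.809 to 1.66 and 0.942 to 1.24. Of the 8 epithelial markers 4 of the 5 tested were lower, beside 26.3% of all genes tested. These were Cdh1 (-1.45), Krt19 (-0.73), Krt8 (-0.40) and Krt18 (-0.19). The call of Krt18, whose groups overlapped, was marginal (adjusted p = 0.0496, and 0.131 with the replicate block). Nkx2-1 did not pass (adjusted p = 0.208) and varied widely within groups. It measured 55.7, 59.1 and 13.6 TMM CPM in sg-con and 10.9, 9.49 and 39.5 in the libraries labelled sg-kiaa1522. Fewer cells of a type and less RNA per cell cannot be told apart in bulk RNA, and the part of these markers in the results was not tested.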

How the data were processed

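RNA of 6 libraries was sequenced on an Illumina HiSeq platform. The authors trimmed and filtered reads with Seqtk, mapped them to GRCm38 with HISAT2 2.0.4 and counted uniquely mapped fragments per gene with StringTie 1.3.0; the deposited values are whole-number counts without normalization, and the annotation release and use of strand are not given in the sources used here. Gene positions and exon lengths came from GENCODE M21 (34344 of 34745 identifiers matched), and promoters from RefSeq GRCm38.p6.

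Groups were taken from the labels. Genes with more than 500 counts in all (10046) were scaled with TMM factors and tested in edgeR 4.0.16 (R 4.3.3) with its quasi-likelihood test and no covariates, and p-values were adjusted over all of them by Benjamini and Hochberg; a gene was called at an adjusted p of 0.05. Irf7 (307 counts) and Socs1 (333) were under the filter. The scripts were tested on simulated data. The members and gene lists were chosen with earlier results of these data known. Named besides the members were C77080, 6 direct partners, and in each list the 3 largest called rises and falls. Socs5, Tbk1, Psmb10, B2m, Irf2bp1, Irf2bpl, the neighbours of members and the genes with few counts were named after their values were seen. Some listed genes are not reported here and were left out of the lists and family sums. Alternatives were other edgeR tests, DESeq2 1.42.0, limma 3.58.1, other scalings and filters, a replicate block and leaving out each library.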

Additional observations from a re-analysis of the deposited data

How the results depend on the processing

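Socs2 was called in 16 of 16 alternatives, with a log2 fold change from 0.42 to 0.64. Irf3 stayed lower but lost its call with edgeR's exact test and likelihood ratio test (-0.28 in both), with every gene of at least 1 count (-0.28), with filterByExpr (-0.27), with the replicate block (-0.28, adjusted p = 0.109) and with the chromosome median removed (-0.27); with 1 library left out it ran from -0.37 to -0.21 and was called only without sg-con replicate 1. The number of members called lower was then 0 with the exact test, the likelihood ratio test, both other filters, the replicate block, the chromosome median removed, an adjusted p of 0.01 and the study's threshold, and 0 to 1 with a library left out. The number called higher was 2 with the chromosome median removed, 0 at the study's threshold and 1 to 2 with a library left out. Stat3 ran from 0.11 to 0.25 with a library left out. Removing the chromosome median, added after seeing the data, took Irf9 to 0.66 and Stat2 to 0.14, which reversed its sign. Irf9 ran from 0.14 to 0.36, Irf7 from -0.38 to -0.07 and Socs1 from -0.23 to 0.08, above 0 in 4 of 6 cases, with a library left out (log2 ratios of mean TMM CPM for Irf7 and Socs1). Irf1 ran from -0.043 to 0.12 with a library left out and reversed to -0.043 without sg-kiaa1522 replicate 3. Why these calls moved was not tested.

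Same-numbered libraries of the 2 groups did not deviate together (correlations of -0.23, -0.05 and -0.17 across genes, mean 0.07 for other pairs), so the numbers were not taken as pairs, and no member other than Irf3 changed its call with the replicate block. Of 40 called genes followed besides the members, 33 kept their call in every alternative and 7 (Jak2, Socs4, Stat5b, Stat6, Irf2, Traf6 and Ifi35) lost it in at least 1; with the replicate block those of Ifi35 (adjusted p = 0.0907), Irf2 (0.0626), Stat5b (0.0974) and Traf6 (0.0751) were lost. Depth limits Irf7 and Socs1, with 31 to 73 counts per library.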
